A study of Mus musculus with 4 samples.

Results

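The integrin and laminin genes were followed in cultured oligodendroglial cells with and without the transcription factor Zfp276. All rows with a gene symbol of the form Itga or Itgb plus a subunit name, or Lama, Lamb or Lamc plus a number, were taken, which gave 37 symbols on 38 of the 53465 rows of the count files. They comprise 18 integrin alpha, 8 integrin beta and 11 laminin genes. The rule reads gene symbols only, though it was set with earlier results of these data known. Itgam is listed on 2 rows, of which one held all but a few of its reads.

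Integrins are transmembrane receptors built from one alpha and one beta subunit, and the pair decides which ligand is bound. They fall into receptors for laminins, for proteins with an RGD motif such as fibronectin and vitronectin, for collagens, and into leukocyte receptors that share the beta subunit Itgb2. Laminins are secreted trimers of an alpha, a beta and a gamma chain that form the basement membrane, and the laminin receptor made of Itga6 and Itgb1 is known for its role in the survival of oligodendrocytes and in myelination.

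The cells were primary mouse oligodendroglial cells (OGCs) from the forebrain of pups at postnatal days 2 to 4, obtained by shake-off from mixed glial cultures with a step that depletes microglia, and kept in differentiation medium for 3 days. RNA-Seq was done on 2 preparations of ctrl cells (Zfp276 fl/fl) and 2 of Zfp276cko cells (Sox10::Cre; Zfp276 fl/fl), each from 3 mice. Both groups carry the floxed Zfp276 alleles, and Cre is driven by Sox10, a gene of the oligodendroglial lineage. Recombination in other cells of these cultures was not tested. A Rosa26 stopflox tdTomato reporter was crossed in to recognise Zfp276cko newborns, and the sources used here do not say whether ctrl cells carried it. The mice had a mixed C3H x C57Bl/6J background, both sexes were used, and the dishes were coated with poly-d-lysine and laminin, a protein that gives no reads.

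Counted reads per library ranged from 21068322 to 26599809, of which 0.202 to 0.218% came from integrin and laminin genes. Zfp276 reads were at 1648 and 2230 normalized counts in ctrl against 490 and 503 in Zfp276cko cells, which was 25.6% of ctrl and the direction that the labels give. Normalized counts are counts scaled to one common library size. The ctrl replicates differed more than the Zfp276cko replicates, with a biological coefficient of variation (the spread that counting error does not cover) of 0.357 against 0.0480. With 2 libraries against 2, an exact permutation test cannot give a two-sided p below 0.333, so p-values come from edgeR's quasi-likelihood test fitted over 15766 genes.

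Of the 38 rows, 32 had enough reads to be tested. At an adjusted p of at most 0.05, a log2 fold change of 0.6 or more in size and a mean of 20 or more normalized counts, edgeR called 0 integrin or laminin genes lower and 0 higher in Zfp276cko cells. The background was equal, with 0% of all tested genes called in either direction and a smallest adjusted p of 0.0725. At an unadjusted p of at most 0.05 with these limits for fold change and mean, 3 were lower (Itgb7, Lama2 and Lama3, 9.38% of the 32 against 3.02% of all genes) and 2 were higher (Itgax and Lama4, 6.25% against 5.11%). By unadjusted p alone 4 were lower (12.5%, background 7.30%), which adds Lamc1, and 5 were higher (15.6%, background 8.33%), which adds Itga6, Itgb2 and Lamb2. DESeq2, run as the alternative test, called Itgb7 and Lama3 lower (6.25%, background 2.21%) and Lama4 higher (3.12%, background 2.92%). The ctrl libraries decided how many genes edgeR called. Without ctrl replicate 1 it called 6 lower (18.8%, background 5.76%) and 4 higher (12.5%, background 10.2%). Without ctrl replicate 2 it called 11 lower (33.3%, background 7.77%) and 6 higher (18.2%, background 10.8%), and with Zfp276cko replicate 1 or 2 left out it called 0. With 1 ctrl library the spread comes from the Zfp276cko pair alone, and the lone library is assumed to vary as little. Itgb7, Lama2 and Lama3 were called lower and Itgax higher in both of these fits.

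In 18 of the 32 genes the groups did not overlap. For 10 genes both Zfp276cko values were smaller than both ctrl values (31.2%, against 23.7% of all tested genes) and for 8 genes both were larger (25.0%, against 26.8%). The lower genes included Itga4, Itgb1, Itgb4, Itgb7, Itgb8, Lama2, Lama3, Lamb3 and Lamc1, and the 8 higher ones were Itga5, Itga6, Itgal, Itgax, Itgb2, Lama4, Lama5 and Lamb2. The median log2 fold change was −0.21 over 22 integrin genes, −0.52 over 10 laminin genes and −0.0013 over all tested genes. Without ctrl replicate 1 the integrin median was 0.083 and the laminin median −0.31, and without ctrl replicate 2 they were −0.27 and −0.30. Log2 fold changes ran from −1.93 to 1.31 among integrins and from −2.20 to 0.70 among laminins, and none passed the adjusted test.

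**Figure D1:**
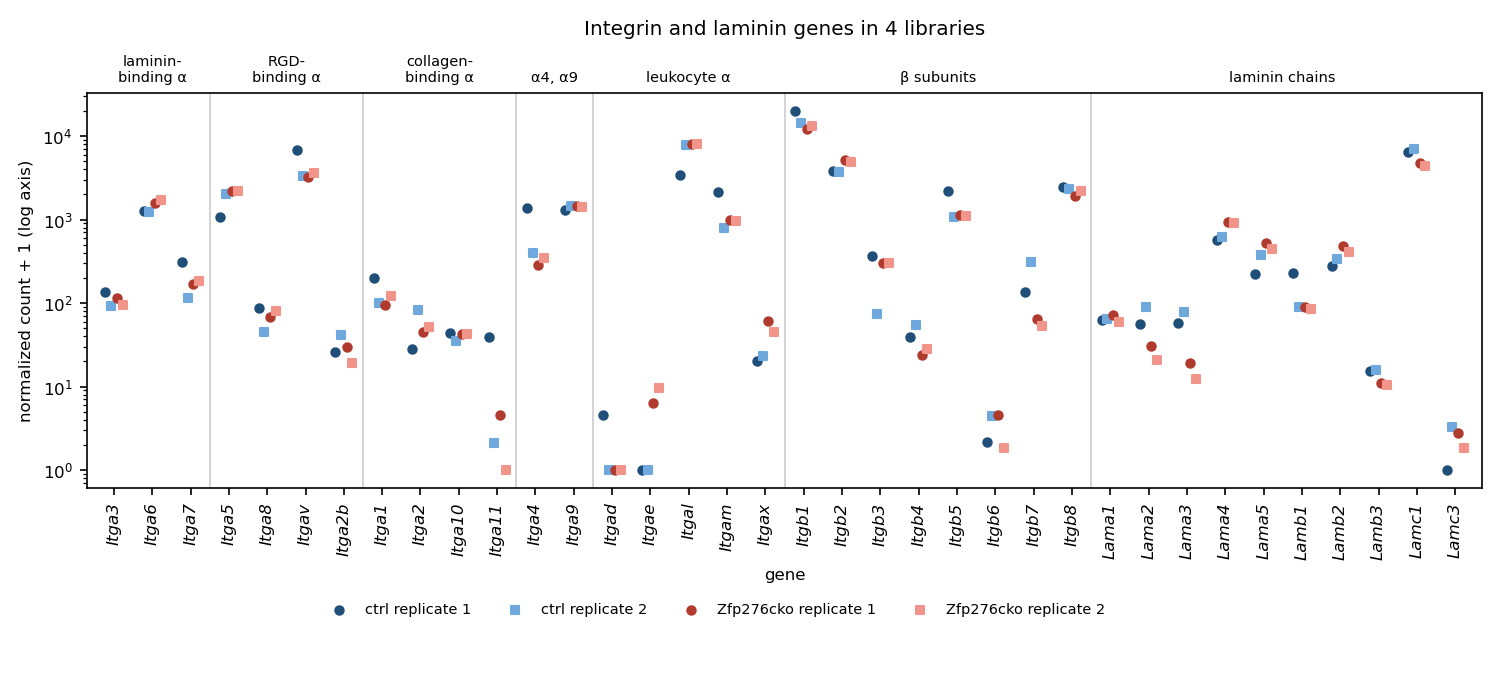
Normalized count plus 1 (log axis) of integrin and laminin genes in the 4 libraries, grouped by role, with ctrl in blue and Zfp276cko in red. Itgb1, at 20043 and 14290 in ctrl against 12270 and 13012 in Zfp276cko cells, is the most counted gene, while Itgad, Itgae, Itgb6 and Lamc3 lie at or near 0.

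**Figure D2:**
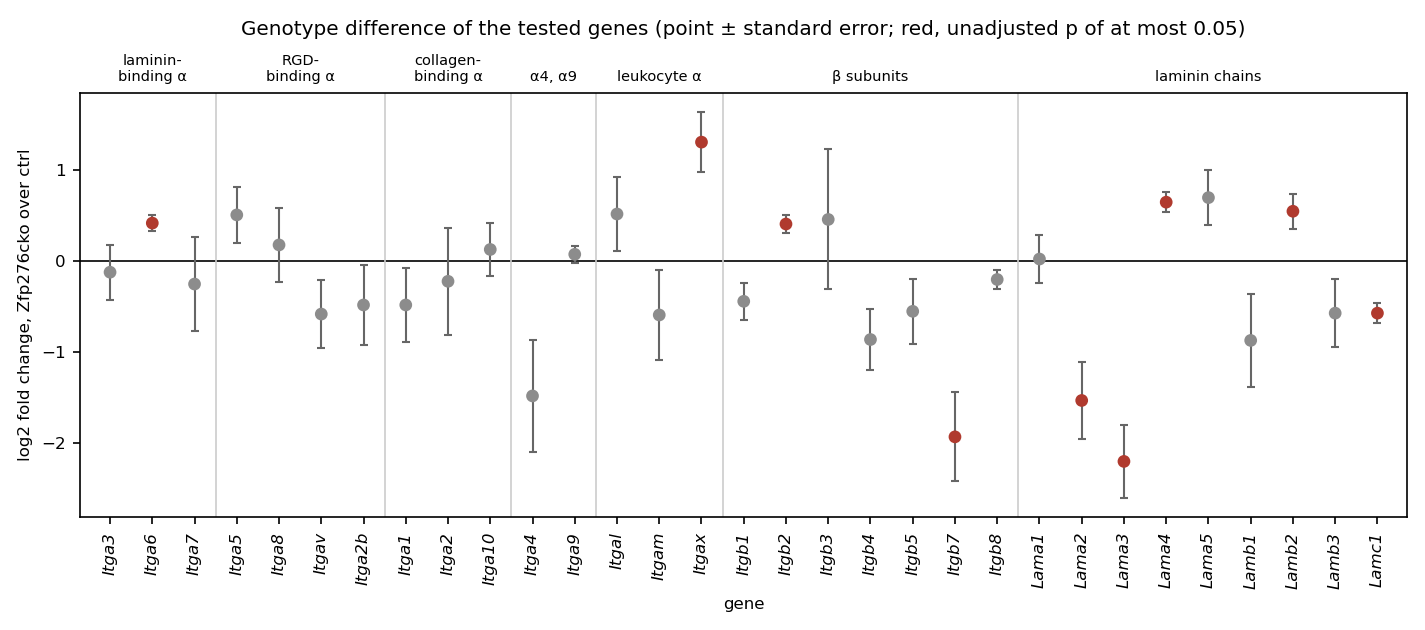
Log2 fold change of Zfp276cko over ctrl for tested genes, with its standard error from edgeR as the bar and red points for an unadjusted p of at most 0.05. Lama3 at −2.20 and Itgb7 at −1.93 are the lowest points and Itgax at 1.31 is the highest.

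Read counts depend on gene length, so that levels of different subunits were compared per kilobase (kb) of merged exons. Among beta subunits Itgb1, which pairs with the laminin, fibronectin and collagen receptor alpha chains, was highest with a mean of 3652 normalized counts per kb, followed by the leukocyte subunit Itgb2 at 1437, Itgb5 at 387 and Itgb8 at 200. Itgb1 made up 69.0 and 65.3% of the summed beta level in ctrl against 57.1 and 59.5% in Zfp276cko cells, and Itgb2 17.7 and 22.6% in ctrl against 32.1 and 29.7% in Zfp276cko cells. Itgb1 thus had a lower and Itgb2 a higher share in both Zfp276cko libraries than in either ctrl library, without a test of these shares.

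Among alpha subunits the leukocyte gene Itgal was highest, with a mean of 1035 normalized counts per kb, followed by Itgav at 397, Itga5 at 381, Itgam at 245, Itga9 at 183 and Itga6 at 160. The Itgal share of the summed alpha level was 22.3% in ctrl replicate 1, 47.6% in ctrl replicate 2, 46.1% in Zfp276cko replicate 1 and 45.5% in Zfp276cko replicate 2. In ctrl replicate 1 Itgav came first with 27.5%, against 12.6% in ctrl replicate 2 and 11.4 and 12.5% in Zfp276cko cells. From Itgav to Itga6 each neighbouring pair in this order changed places between libraries, so these neighbours did not differ beyond their spread, and with the longest transcript as length Itga6 (335 per kb) came before Itgam (262) and Itga9 (201). A leukocyte alpha chain was thus the most abundant alpha transcript in 3 of 4 libraries of a culture that had been depleted of microglia.

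Laminin transcripts were dominated by one chain of each kind. Lamc1, the gamma chain of most laminins, had a mean of 680 normalized counts per kb and between 99.3 and 99.6% of the gamma level in every library. Lama4 (63.1 per kb) led the alpha chains with 57.6 and 49.7% in ctrl against 57.7 and 62.0% in Zfp276cko cells, followed by Lama5 with 23.9, 31.7, 34.3 and 31.3% in the same order. Lamb2 (61.6 per kb) led the beta chains with 64.3 and 83.0% in ctrl against 88.4 and 87.1% in Zfp276cko cells, and Lamb1 followed. The gamma chain level was thus well above that of any alpha or beta chain.

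**Figure D3:**
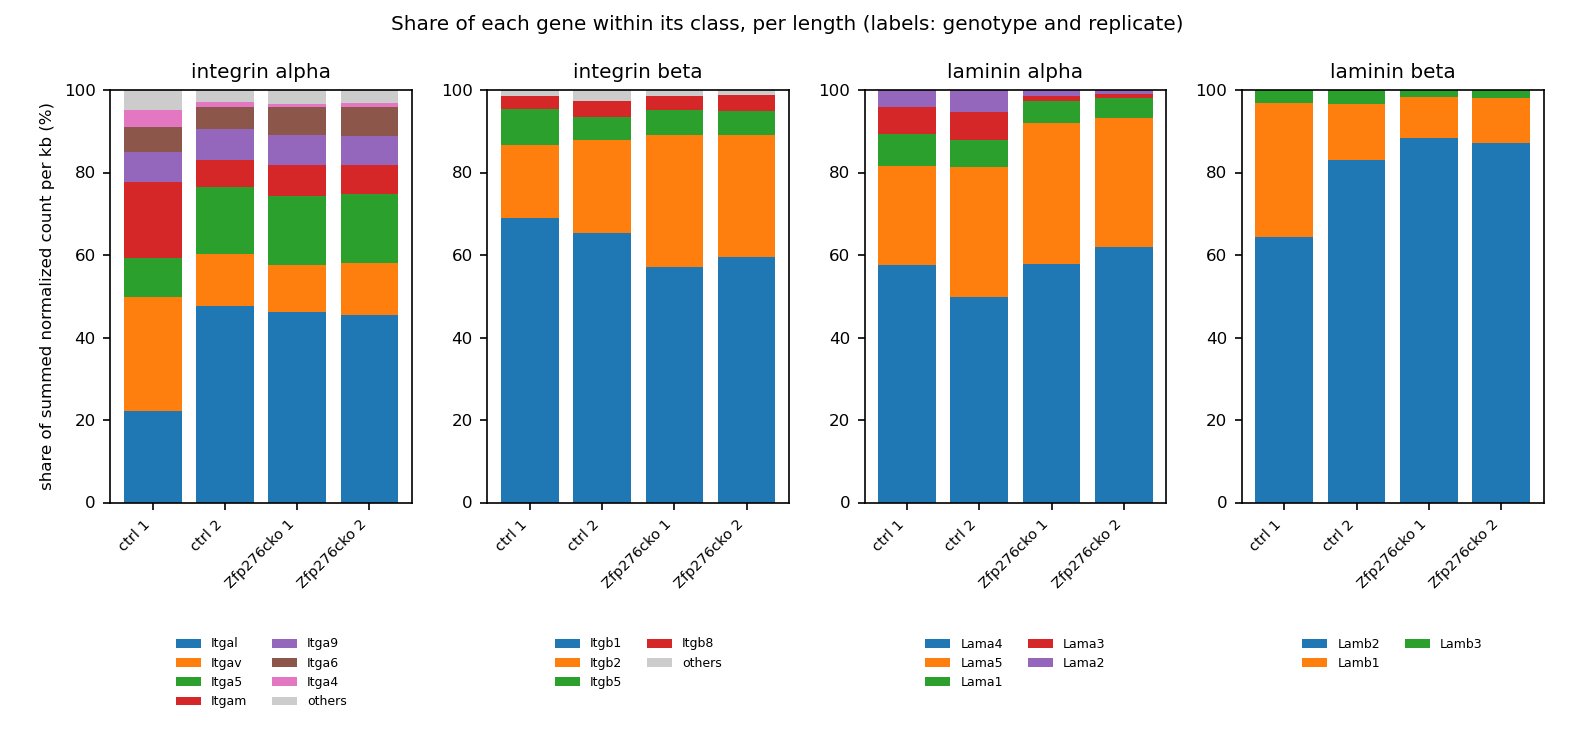
Share of each gene in the summed normalized count per kb of its class, in percent, for integrin alpha, integrin beta, laminin alpha and laminin beta genes in the 4 libraries, where grey stands for genes with a mean share under 1%. Itgal takes 22.3% of the alpha level in ctrl replicate 1 and 45.5 to 47.6% in the other libraries, and the Lama3 and Lama2 segments are thinner in both Zfp276cko libraries than in ctrl.

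The receptors for laminin were described first. Itga6, the alpha chain of the main oligodendroglial laminin receptor (mm10 chromosome 2, 71745616 to 71858416), was at 1249 and 1222 normalized counts in ctrl against 1592 and 1713 in Zfp276cko cells. Both Zfp276cko libraries lay above ctrl, by a log2 fold change of 0.42 ± 0.091 (SE; unadjusted p 0.00860, adjusted p 0.183 in edgeR), and leaving out any library kept it between 0.37 and 0.48. Its partner Itgb1 was at 20043 and 14290 in ctrl against 12270 and 13012 in Zfp276cko cells. Here both Zfp276cko libraries lay below ctrl, and the log2 fold change was −0.44 ± 0.20 (unadjusted p 0.0882, adjusted p 0.392), so that neither subunit of this receptor passed the adjusted test.

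Itgb4, the other partner of Itga6 and a subunit of epithelial hemidesmosomes, was low, at 38.0 and 52.9 in ctrl against 22.6 and 27.5 in Zfp276cko cells. The groups did not overlap, with a log2 fold change of −0.86 ± 0.34 and an unadjusted p of 0.0603. Itga3 and Itga7, the remaining laminin-binding alpha chains, overlapped between the groups with log2 fold changes of −0.12 ± 0.30 and −0.25 ± 0.52. Itga7 was at 308 in ctrl replicate 1 and at 113 in ctrl replicate 2, with Zfp276cko cells in between at 169 and 183.

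RGD receptors share Itgav as alpha chain or use Itga5, Itga8 or Itga2b. Itgav (chromosome 2, 83724397 to 83806916) was at 6879 in ctrl replicate 1, 3346 in ctrl replicate 2, and 3235 and 3623 in Zfp276cko cells. Only ctrl replicate 1 stood apart, the groups overlapped, and the log2 fold change of −0.58 ± 0.37 (adjusted p 0.519) became 0.037 without that library. The beta subunit Itgb5, which pairs with Itgav alone, had the same order, with 2189 and 1072 in ctrl against 1129 and 1104 in Zfp276cko cells and a log2 fold change of −0.55 ± 0.36 that became 0.059 without ctrl replicate 1.

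Itga5, the alpha chain of the classical fibronectin receptor, was at 1086 in ctrl replicate 1, 2010 in ctrl replicate 2, and 2191 and 2224 in Zfp276cko cells. Both Zfp276cko libraries lay above ctrl, yet ctrl replicate 2 was close to them, and the log2 fold change of 0.51 ± 0.31 (adjusted p 0.499) ranged from 0.14 to 1.01 when single libraries were left out. Itgb8, whose pair with Itgav activates TGF-beta, was at 2422 and 2324 in ctrl against 1933 and 2189 in Zfp276cko cells, with separate groups and a log2 fold change of −0.20 ± 0.10 (unadjusted p 0.117). Itgb3, which pairs with Itgav and, in platelets, with Itga2b, ran from 72.0 to 362 in ctrl around 298 and 297 in Zfp276cko cells. Itga8 and Itga2b overlapped between the groups at mean normalized counts of 64.7 and 32.7 in ctrl against 73.4 and 23.5 in Zfp276cko cells.

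The collagen-binding chains were low in all libraries, with ctrl means of 150 for Itga1, 54.7 for Itga2 and 38.3 for Itga10 and Zfp276cko means of 108, 47.1 and 41.9. All of them overlapped between the groups, and Gm42957, a gene on the same strand, covers 33.5% of the Itga10 exons. Itga11, a collagen receptor of fibroblasts, had 32 reads in ctrl replicate 1 and 1, 4 and 0 reads in ctrl replicate 2 and the Zfp276cko libraries, and was not tested.

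Itga4 and Itga9 bind fibronectin or tenascin-C and Vcam1 and pair with Itgb1, and Itga4 also pairs with Itgb7. Itga4 was at 1363 in ctrl replicate 1, 399 in ctrl replicate 2, and 285 and 346 in Zfp276cko cells. The groups did not overlap, but the ctrl libraries were further apart from each other than ctrl replicate 2 was from Zfp276cko cells, and the log2 fold change of −1.48 ± 0.62 (adjusted p 0.364) was −0.34 without ctrl replicate 1. Itga9 was at 1310 and 1433 in ctrl against 1469 and 1424 in Zfp276cko cells, the closest agreement between genotypes among the well-expressed alpha chains named here, with a log2 fold change of 0.077 ± 0.095.

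The leukocyte integrins Itgal, Itgam, Itgax and Itgad use Itgb2 as partner and are carried by myeloid cells and lymphocytes, in brain cultures mainly by microglia. Itgb2 (chromosome 10, 77530252 to 77565708) was at 3836 and 3701 in ctrl against 5151 and 4856 in Zfp276cko cells. Both Zfp276cko libraries were higher, with a log2 fold change of 0.41 ± 0.095 (unadjusted p 0.0110, adjusted p 0.191 in edgeR) that stayed between 0.37 and 0.45 without any one library. In these bulk libraries, more cells of a type and more RNA per cell cannot be told apart.

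The alpha partners of Itgb2 did not share one pattern. Itgal, the alpha chain of the lymphocyte function antigen (chromosome 7, 127296260 to 127335138), was at 3405 in ctrl replicate 1, 7757 in ctrl replicate 2, and 7972 and 8051 in Zfp276cko cells. Ctrl replicate 1 was the low library, ctrl replicate 2 lay just under the Zfp276cko pair, and the log2 fold change was 0.52 ± 0.41 (adjusted p 0.598), or 0.048 without ctrl replicate 1. Itgam (CD11b, chromosome 7, 128062640 to 128118491) had the reverse order among ctrl libraries, with 2154 and 796 in ctrl against 993 and 972 in Zfp276cko cells. Its groups overlapped, and the log2 fold change was −0.59 ± 0.49, or 0.30 without ctrl replicate 1. A GENCODE gene on the same strand, Gm49368, covers 68.7% of the Itgam exons, so reads of these exons may not be assigned to Itgam alone, and Gm49368 is not listed in the count files under this symbol.

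Itgax (CD11c, chromosome 7, 128129547 to 128150657) was low, at 19.0 and 22.5 in ctrl against 59.7 and 43.8 in Zfp276cko cells. Each Zfp276cko value exceeded each ctrl value, and the log2 fold change of 1.31 ± 0.33 (unadjusted p 0.0153, adjusted p 0.211; DESeq2 adjusted p 0.271) was between 1.08 and 1.52 when single libraries were left out. Itgad, next to it, had 3 reads in ctrl replicate 1 and 0 in the other libraries. Of 16 microglia and macrophage markers without integrins, 1 was lower and 3 were higher at an unadjusted p of at most 0.05. These were 7.30% and 8.33% of all tested genes. The lower one was Fcrls (log2 fold change −1.22), and the higher ones were Ptprc (0.76), Cd68 (0.99) and Cx3cr1 (0.38). Both Zfp276cko libraries lay above ctrl for 5 of the 16 and below for 1, against 26.8% and 23.7% of all tested genes. The summed normalized counts were 75562 and 53761 in ctrl against 58624 and 60330 in Zfp276cko cells. The sum thus overlapped between the genotypes while single markers moved in both directions. Csf1r (11409 and 1850 in ctrl replicates 1 and 2), Trem2, P2ry12, Mrc1, C1qa and C1qc were more than 2-fold higher in ctrl replicate 1, as Itgam was. Aif1 (1248 and 3204) was more than 2-fold higher in ctrl replicate 2, as Itgal was. For the other markers the ctrl replicates were less than 2-fold apart. The part of these cells in the Itgb2, Itgal, Itgam and Itgax values was not tested.

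Itgam and Itgax are neighbours on chromosome 7, separated by 11.1 kb, and differed in these libraries, so that the bases before their starts are shown. They were taken from RefSeq (GRCm38.p6, the same coordinates as mm10), which had entries for 23 of the 37 genes, and capitals mark matches on either strand to GAGGAA, the core motif of the myeloid factor PU.1. The Itgam window is chr7:128062390-128062639 and the Itgax window chr7:128129300-128129546, both on the plus strand and written 5′ to 3′.
Itgam: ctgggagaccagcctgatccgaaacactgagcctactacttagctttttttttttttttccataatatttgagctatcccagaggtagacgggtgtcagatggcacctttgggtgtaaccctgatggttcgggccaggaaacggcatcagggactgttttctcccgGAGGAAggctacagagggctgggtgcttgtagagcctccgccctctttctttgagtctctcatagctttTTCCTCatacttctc
Itgax: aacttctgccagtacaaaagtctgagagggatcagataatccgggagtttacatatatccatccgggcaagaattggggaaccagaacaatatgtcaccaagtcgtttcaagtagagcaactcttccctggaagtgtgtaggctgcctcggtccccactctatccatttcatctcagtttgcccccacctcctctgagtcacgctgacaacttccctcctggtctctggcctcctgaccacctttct
Itgam has 2 matches, 84 and 15 bases before the start, and Itgax has none in this window. The motif occurs in 23.3% of 32851 promoter windows of 250 bases and in 13 of the 23 genes with an entry. These 23 genes have 26 windows, and a gene was counted if any of its windows matched. The share of windows and the count of genes are thus unlike units, here and in the next sentence. The Sox motifs ACAAAG and ACAATG, searched in the same way, occur in 16.5% and 10.7% of all windows and in neither of these windows, and 2 and 1 of the 23 genes hold them. A match describes the letters and not a bound site.

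Itgb7, the beta subunit that pairs with Itga4 and Itgae in receptors for mucosal homing (chromosome 15, 102215995 to 102231944), had the most negative fold change of the tested integrin genes. It was at 133 in ctrl replicate 1, 313 in ctrl replicate 2, and 64.2 and 52.4 in Zfp276cko cells. Both Zfp276cko libraries were below both ctrl libraries, which themselves were more than 2-fold apart, and the log2 fold change was −1.93 ± 0.49 (unadjusted p 0.0153, adjusted p 0.211 in edgeR; adjusted p 0.00756 in DESeq2). Without ctrl replicate 1 it was −2.42 and without ctrl replicate 2 it was −1.20. Its partner Itgae had 0 reads in both ctrl libraries and 6 and 10 in Zfp276cko cells, at least 2.02-fold higher against a floor of 3 reads per library, and was too low to be tested. Of 7 lymphocyte markers, 5 had no more than 3 reads in any library, and the summed list, at 83.1 and 13.5 in ctrl against 51.6 and 43.0 in Zfp276cko cells, was mostly Cd4 (78.4 and 6.75 against 40.7 and 36.9), which myeloid cells also express. The part of lymphocytes in the Itgb7 and Itgae values was not tested. Itgb6, an epithelial partner of Itgav, had between 1 and 4 reads per library.

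Among laminin alpha chains, Lama3 and Lama2 were lower and Lama4 was higher in Zfp276cko cells. Lama4, a chain of vascular basement membranes (chromosome 10, 38965515 to 39110188), was at 566 and 620 in ctrl against 942 and 918 in Zfp276cko cells. The replicates of each genotype lay close together, and the log2 fold change of 0.65 ± 0.11 (unadjusted p 0.00393, adjusted p 0.151 in edgeR; adjusted p 0.0142 in DESeq2) stayed between 0.59 and 0.70 without any one library. Lama5, a chain of many mature basement membranes, was at 222 and 374 in ctrl against 529 and 437 in Zfp276cko cells. It was also higher in both Zfp276cko libraries, with a log2 fold change of 0.70 ± 0.30 and an unadjusted p of 0.0799.

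Lama2, the chain whose loss causes congenital muscular dystrophy with white matter changes (chromosome 10, 26980036 to 27619758), was at 54.6 and 88.9 in ctrl against 29.9 and 19.8 in Zfp276cko cells, or 34.6% of ctrl. Both Zfp276cko libraries lay below ctrl, with a log2 fold change of −1.53 ± 0.42 (unadjusted p 0.0192, adjusted p 0.230 in edgeR; adjusted p 0.125 in DESeq2) and a range of −1.85 to −1.15 without single libraries. The RefSeq promoter window of Lama2 is shown because this chain carried one of the larger differences of both families. It is chr10:27616943-27617192 on the minus strand, written 5′ to 3′ along that strand, and lies in an intron of the longer GENCODE model.
Lama2: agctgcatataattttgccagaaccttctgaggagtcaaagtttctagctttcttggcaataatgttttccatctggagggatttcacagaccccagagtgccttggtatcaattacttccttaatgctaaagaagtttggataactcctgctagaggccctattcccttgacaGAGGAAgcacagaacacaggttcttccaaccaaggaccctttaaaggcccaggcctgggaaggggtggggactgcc
It holds 1 match to GAGGAA, 76 bases before the start, and no match to either Sox motif.

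Lama1, a chain of early basement membranes, was at 61.7 and 64.1 in ctrl against 70.6 and 57.6 in Zfp276cko cells. It overlapped between the groups with a log2 fold change of 0.025 ± 0.26, the smallest in size of the alpha chains.

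Among the beta chains Lamb2, the beta chain of synaptic and kidney laminins (chromosome 9, 108479736 to 108490530), was at 275 and 332 in ctrl against 487 and 404 in Zfp276cko cells. It was higher in both Zfp276cko libraries by a log2 fold change of 0.55 ± 0.19 (unadjusted p 0.0408, adjusted p 0.301 in edgeR; unadjusted p 0.0858 with a replicate block). Lamb1, the widespread beta chain, was at 228 in ctrl replicate 1, 88.9 in ctrl replicate 2, and 89.6 and 83.3 in Zfp276cko cells. Only ctrl replicate 1 stood apart, and its log2 fold change of −0.87 ± 0.51 was −0.04 without that library.

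Lamc1 (chromosome 1, 153218922 to 153332786) was at 6380 and 7067 in ctrl against 4724 and 4341 in Zfp276cko cells. The ctrl replicates agreed closely here, the Zfp276cko libraries were lower at 67.4% of ctrl, and the log2 fold change was −0.57 ± 0.11 (unadjusted p 0.00620, adjusted p 0.170 in edgeR). DESeq2 gave it an adjusted p of 0.00586, but its fold change is just under the threshold of 0.6 and it was not called. Leaving out any library kept it between −0.64 and −0.51.

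Lama3, an alpha chain of epithelial basement membranes, was at 57.0 and 77.6 in ctrl against 18.1 and 11.2 in Zfp276cko cells, the largest difference among the tested genes of both families. All Zfp276cko values lay below ctrl, with a log2 fold change of −2.20 ± 0.40 (unadjusted p 0.00451, adjusted p 0.160 in edgeR; adjusted p 0.0106 in DESeq2) between −2.57 and −1.89 without single libraries. Lamb3 was low, at 14.2 and 14.6 in ctrl against 9.95 and 9.45 in Zfp276cko cells. Its groups did not overlap, with a log2 fold change of −0.57 ± 0.37, and Lamc3 had at most 2 reads in any library.

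The spread of the ctrl libraries touched many of these genes. Of 31 integrin and laminin genes with a mean of at least 20, the ctrl replicates were at least 2-fold apart for 11 (35.5%, against 12.8% of all genes at that level), and the Zfp276cko replicates for 0 (background 0.335%). The 11 genes were Itga1, Itga2, Itga4, Itga7, Itgal, Itgam, Itgav, Itgb3, Itgb5, Itgb7 and Lamb1. Itgal, Itga2 and Itgb7 were lower in ctrl replicate 1 and the other 8 were higher there. None of Itga6, Itgb2, Lama4, Lamb2, Lamc1, Lama2, Lama3 and Itgax was in this group.

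**Figure D4:**
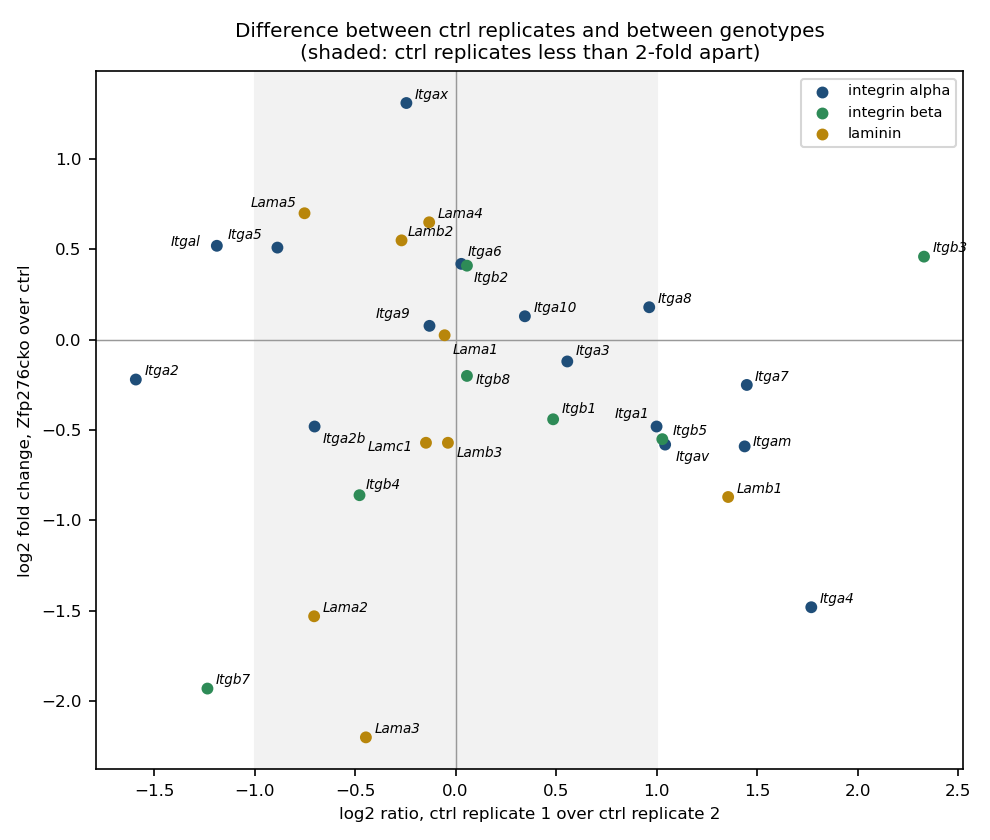
Log2 fold change of Zfp276cko over ctrl against the log2 ratio of ctrl replicate 1 to ctrl replicate 2 for tested genes, coloured by class. Genes outside the shaded band had ctrl replicates at least 2-fold apart, among them Itgb7 and Itga4, while Lama3, Lama2, Lama4 and Itgax lie inside it.

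Markers of other cells moved between the libraries. The summed fibroblast and vessel list, which holds no laminin, was at 9197 in ctrl replicate 1, 625 in ctrl replicate 2, and 598 and 521 in Zfp276cko cells, a 14.7-fold difference between the ctrl libraries, with Cldn5 at 0. Col1a1, Col1a2, Col3a1 and Acta2 made up most of this sum in the ctrl libraries but not in the Zfp276cko libraries, where Pecam1 was the largest member. Among vessel markers, Pecam1 was at 106 and 93.4 in ctrl against 153 and 161 in Zfp276cko cells. Its log2 fold change was 0.66 (unadjusted p 0.0335 in edgeR). Kdr (0.24), Cdh5 (−0.84), Pdgfrb (−1.33) and Rgs5 (−0.36) overlapped between the groups, and Acta2 (−2.84) was lower in both Zfp276cko libraries. Lama4 was higher in both Zfp276cko libraries as Pecam1 was, but the other vessel markers did not share this. The part of vessel cells in the Lama4 value was not tested. Itga11, Lamb1, Itga1, Itgav and Itgb5 were also highest in ctrl replicate 1, and the part of fibroblasts in their values was not tested. The platelet list was at 1606 and 421 in ctrl against 292 and 296 in Zfp276cko cells. Gp1bb (944 and 412 against 246 and 256) and Pf4 (628 and 4.50 against 44.3 and 37.8) made up most of it. Gp9 and Ppbp, also in this list, were too low to be tested, so the sum does not show that platelets were present. Itga2b was at 24.9 and 40.5 in ctrl against 29.0 and 18.0 in Zfp276cko cells, and the part of platelets in its value was not tested.

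The oligodendrocyte list was at 351753 and 455834 in ctrl against 240544 and 245204 in Zfp276cko cells. In edgeR 10 of its 12 genes were lower at an unadjusted p of at most 0.05, against 7.30% of all tested genes. Ctrl replicate 2 was the highest library of this list, as it was for Lamc1, Lama2, Lama3 and Itgb7. The list of oligodendroglial precursor (OPC) markers was at 174780 and 128343 in ctrl against 95966 and 94035 in Zfp276cko cells. Gpr17 made most of this difference, since without it the sums were 61376 and 58576 in ctrl against 52670 and 52942 in Zfp276cko cells. The astrocyte list (Gjb6 at 0) ran from 29111 to 37730 and the neuron list from 18003 to 30997 over the 4 libraries, both overlapping between genotypes. Map2 made up most of the neuron sum. Gad1, Syt1, Snap25, Stmn2 and Rbfox3 were 13.6 to 26.3-fold higher in ctrl replicate 2 than in ctrl replicate 1, with Zfp276cko cells in between. Dcx (2.87-fold) and Tubb3 (2.02-fold) had the same order, Nefl was nearly equal and Slc17a7 was too low to be tested. The Schwann cell list was at 113 to 184. The part of any of these cells in the integrin and laminin values was not tested.

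**Figure D5:**
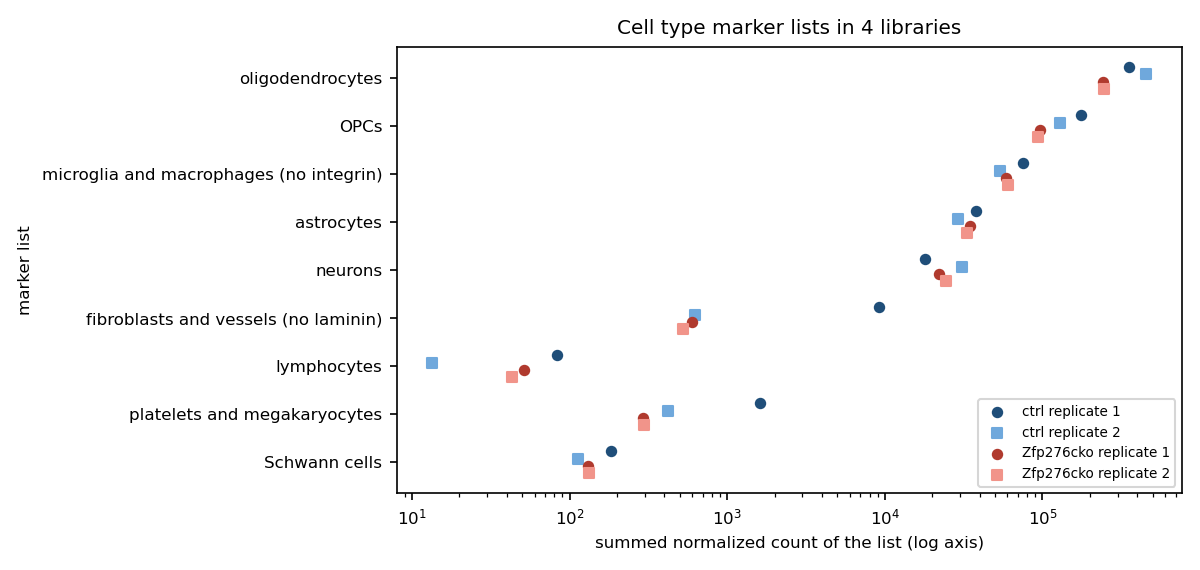
Summed normalized counts (log axis) of each cell type marker list in the 4 libraries, with ctrl in blue and Zfp276cko in red. The fibroblast and vessel list sets ctrl replicate 1 (9197) apart from the others (521 to 625), and the oligodendrocyte list is lower in both Zfp276cko libraries.

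Genes that act beside integrins were taken from lists. Of 39 tested genes of the adhesion complex, the proteins that couple integrins to actin and kinases together with their membrane partners Cd47, Cd151, Cd9 and Cd81, 6 were lower and 4 higher at an unadjusted p of at most 0.05 (7.30% and 8.33% of all tested genes), with a median log2 fold change of −0.17. Ptk2b, a relative of focal adhesion kinase, was at 1072 and 1284 in ctrl against 2364 and 2392 in Zfp276cko cells (log2 fold change 1.01 ± 0.12). Ilk, the integrin-linked kinase, was at 5371 and 5880 in ctrl against 3365 and 3509 in Zfp276cko cells (−0.71 ± 0.10). Fyn, a kinase that acts below integrins in oligodendrocytes, was at 39456 and 39172 in ctrl against 23193 and 23379 in Zfp276cko cells (−0.76 ± 0.12). In these 3 genes the replicates of a genotype were close and the groups were apart. DESeq2 called 2 genes of the list lower and 2 higher, against 2.21% and 2.92% of all genes. Fermt3, the kindlin of blood cells that activates Itgb2 integrins, was at 1610 and 1798 in ctrl against 2141 and 2223 in Zfp276cko cells (0.36 ± 0.099).

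Of 28 tested genes for other laminin receptors and basement membrane proteins, 6 were lower and 2 higher at an unadjusted p of at most 0.05 in edgeR. Over all tested genes 7.30% were lower and 8.33% higher. The median log2 fold change of the list was −0.07. Dag1, which encodes dystroglycan, was at 6633 and 6415 in ctrl against 4935 and 5106 in Zfp276cko cells (log2 fold change −0.38 ± 0.094). Dag1 was thus lower in both Zfp276cko libraries. DESeq2 called 1 gene of this list lower and 0 higher, against 2.21% and 2.92% of all genes.

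Of 26 tested ligands of non-laminin integrin receptors, 5 were lower and 1 higher at an unadjusted p of at most 0.05 in edgeR. These were 7.30% and 8.33% of all tested genes. The median log2 fold change of the ligands was −0.44. Tnc, the tenascin bound by Itga9, was at 1336 and 1090 in ctrl against 613 and 569 in Zfp276cko cells (log2 fold change −1.04 ± 0.15). Fn1, which encodes fibronectin, was at 5949 in ctrl replicate 1, 638 in ctrl replicate 2, and 448 and 427 in Zfp276cko cells (−2.91 ± 1.1), with ctrl replicate 1 well above the rest. Icam1, the ligand of Itgal, was at 816 and 1718 in ctrl against 1535 and 1551 in Zfp276cko cells, low in ctrl replicate 1 as Itgal was. DESeq2 called 3 of these ligands lower and 0 higher, against 2.21% and 2.92% of all genes. After adjustment edgeR called 0 genes of the 3 lists, and 0% of all tested genes.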

How the data were processed

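RNA-Seq libraries of 2 ctrl and 2 Zfp276cko preparations were analysed from whole-number read counts per gene symbol, deposited by the authors without normalization. Per the labels, stranded mRNA libraries were read as 101 bp single ends, and per the methods reads were mapped to mm10 with STAR. The submitters' processing notes list STAR 2.5.4a and featureCounts 1.5.1, whereas the methods name HTSeq with Ensembl genes. The strand setting is not given in the sources used here, so reads from overlapping genes on opposite strands may be counted together.

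Genes kept by edgeR's filterByExpr function (15766 genes, 99.9% of counts) were scaled with TMM factors and compared with the quasi-likelihood test of edgeR 4.0.16 in R 4.3.3, with Benjamini-Hochberg adjustment over all tested genes. DESeq2 1.42.0 was an alternative, as were its size factors in edgeR, no filter, at least 10 counts in every library, calls by adjusted p alone, a replicate block, leaving out each library, and the longest transcript as gene length. Standard errors are those of the quasi-likelihood F statistic. Gene lengths and positions came from GENCODE vM21. The pipeline was tested on simulated counts with the same spread in both groups. The ctrl and Zfp276cko libraries differ in spread, so that test does not cover this feature of the data.

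The integrin and laminin genes, the lists of other genes and the rule on which genes are named were chosen with earlier results of these data known. Values per library are given for genes with an unadjusted p of at most 0.05, genes called by DESeq2, the 5 alpha, 3 beta and 5 laminin genes with the highest level per kb, and their partner subunits. Other genes were named after their values were seen.

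The precision is limited by 2 libraries per genotype and by 21068322 to 26599809 counted reads. Floors of 3 reads cover counting error only. The second Itgam row held 1, 0, 0 and 1 reads. Some genes that these rules cover are not reported here, in the text or the figures, though counts and medians include them.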

Additional observations from a re-analysis of the deposited data

How the results depend on the processing

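Of 171 values of the 19 named genes under alternatives, 136 kept their direction and their side of an adjusted p of 0.05, without regard to fold, 32 passed it in the same direction and 3 reversed. The reversed ones were the log2 fold changes of Itgam (0.30), Itgav (0.037) and Itgb5 (0.059) without ctrl replicate 1. When each library was left out in turn, these ran from −1.15 to 0.30, from −1.02 to 0.037 and from −0.99 to 0.059. The 19 genes do not include all genes described above. Outside them, Itga1, Itga2, Itga3, Itga7, Itga8, Itga10, Itgb3 and Lama1 also changed sign when single libraries were left out. Among these, Itga7 ran from −0.82 to 0.65 and Itgb3 from −0.30 to 2.05. Without single libraries, genes of both families called lower ran from 0 to 11 and called higher from 0 to 6, while calls over all genes ran from 0 to 1286 and from 0 to 1792. DESeq2 called 2 and 1. Genes with an unadjusted p of at most 0.05 at the thresholds for fold and mean ran, without single libraries, from 0 to 11 lower and from 0 to 7 higher, with the largest counts without ctrl replicate 2 and the smallest without a Zfp276cko library. Without single libraries the integrin median ran from −0.27 to 0.083 and the laminin median from −0.52 to −0.30, and in DESeq2 they were −0.23 and −0.54. The Zfp276 log2 fold change was −1.97 in edgeR, where it was not called (adjusted p 0.0962), and −1.98 in DESeq2, where it was called. Without single libraries it ran from −2.17 to −1.75. The cause of these shifts was not tested, except that a fit with 1 ctrl library takes its spread from the Zfp276cko pair.

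The labels do not say whether replicates with equal numbers were prepared together. The differences between replicates 1 and 2 had a correlation of −0.00502 between genotypes over 15766 genes. This cannot decide whether the samples were paired, since the Zfp276cko replicates hardly differed (biological coefficient of variation 0.048, against 0.357 in ctrl). With the replicate block, 0 genes of both families were called, 3 were lower and 2 higher by unadjusted p with the limits for fold and mean, 4 and 4 by unadjusted p alone (Lamb2 at 0.0858), the integrin and laminin medians were −0.10 and −0.51, and Zfp276 was at −1.95. The Itgal share was 38.9% with the longest transcript as length and 38.0 to 46.4% without single libraries. Depth limits Itgad, Itgae, Itga11, Itgb6 and Lamc3, which were too low to be tested.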
